A study of Homo sapiens with 20 samples.

Results

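The 59 genes described here are the amino acid transporter families SLC1, SLC3, SLC6, SLC7, SLC36, SLC38 and SLC43. They were taken by gene symbol, with at least 1 curated coding transcript (RefSeq NM_), from 46425 genes in RNA-seq tables of differentiating HUDEP-2 cells. SLC1 has 7 members, SLC3 has 2, SLC6 has 19, SLC7 has 13, SLC36 has 4, SLC38 has 11 and SLC43 has 3. HUDEP-2 is an immortalised erythroid progenitor line derived from human umbilical cord blood, and every library came from this 1 line, labelled wild type. Cells of day 0 grew in StemSpan SFEM with EPO, SCF and doxycycline, and per the study's methods with dexamethasone, which the later medium lacked. Cells of days 1 to 8 and 12 were moved to IMDM with holo-transferrin, AB serum, heparin, insulin and L-glutamine, where EPO, SCF and doxycycline were kept at first, SCF was left out from day 6 and doxycycline was taken away on day 8. In the study's terms days 4 to 6 hold early and late basophilic erythroblasts, day 8 polychromatic erythroblasts, and day 12 orthochromatic erythroblasts and reticulocytes. For each of the 10 days 2 libraries were used. Those in the deposited table of all days are called set A and those in the tables of separate days set B, and paired values below give set A first.

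Amino acid carriers move their substrates across the plasma membrane or the lysosomal membrane. Members of SLC3 are single-span heavy chains that bring an SLC7 light chain to the cell surface, where the pair exchanges amino acids. Members of SLC1, SLC6 and SLC38 use sodium to drive uptake, SLC36 uses protons, and SLC43 carries substrates down their gradient. Erythroid precursors build large amounts of globin from imported amino acids, use glycine in the first step of haem synthesis and use cysteine, glutamate and glycine for glutathione.

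Levels are given in TPM, a share of all transcripts in a library that accounts for transcript length and can be compared between genes. Changes are log2 fold changes ± SE from counts scaled by TMM, tested with edgeR's quasi-likelihood test over 16784 genes, with Benjamini-Hochberg adjusted p under 0.05 called. The TMM scale and the TPM scale part on day 8 and further on day 12. The 10 globin genes took 33.7% and 28.2% of all counts on day 12, against 0.819% and 0.859% on day 0, and their part in this was not tested. The value of limma on log2(TPM + 1) is therefore given beside the edgeR value where a call or a sign that the text turns on differs between the scales. The labels do not say whether the 2 libraries of a day came from separate cultures, so p-values measure the spread between these libraries, which may be technical. In bulk RNA, fewer cells of a type and less RNA per cell cannot be told apart.

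The libraries held 52131713 to 70358198 counts, so that 3 counts, the limit that a count of 0 allows, lay at 0.0426 to 0.0575 CPM (counts scaled to 1000000 per library). Counts in ribosomal RNA genes made up 18.5% of the day 7 library and 17.5% of the day 8 library of set B, and at most 4.08% of the others. Both of these set B libraries came from the deposited table that holds days 7 and 8 only. All 9 erythroid markers were present, and their summed level went from 28030 to 30170 TPM on day 0 to 432400 to 479800 TPM on day 12. Of 6 leukocyte markers 3 stayed at or under 3 counts in every library (CD3E at 0), and the sum never passed 1.49 TPM. The 4 megakaryocyte markers summed to at most 0.917 TPM, with PF4 at 0. The 3 mast cell or basophil markers, mainly TPSAB1, summed to 533 and 1010 TPM on day 0, to between 0.598 and 3.14 TPM on day 8 and to at most 0.662 TPM on day 12, and their part in the falls of SLC6A6, SLC7A6, SLC7A8 and SLC38A1 below was not tested.

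The gene for the shared heavy chain, SLC3A2 (gene 6520, chr11:62856109-62888860 on hg38, plus strand), has transcripts from separate starts, and transcripts from the upstream and the internal start took opposite courses. The bases before both starts are shown with those before the start of SLC7A5 (gene 8140, chr16:87830023-87869507, minus strand), its most abundant light chain, because results below turn on them. Each line gives the 250 bases upstream of the start from the RefSeq promoter table (GRCh38.p14), 5′ to 3′ on the gene's strand, in lower case, and capitals mark an E-box, CACGTG.
SLC3A2, upstream start, chr11:62855859-62856108, plus strand: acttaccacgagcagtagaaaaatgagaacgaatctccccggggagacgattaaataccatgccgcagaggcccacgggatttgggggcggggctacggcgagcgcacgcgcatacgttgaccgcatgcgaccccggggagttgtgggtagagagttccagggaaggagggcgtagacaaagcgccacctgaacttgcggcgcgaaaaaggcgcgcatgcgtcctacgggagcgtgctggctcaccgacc
SLC3A2, internal start, chr11:62880646-62880895, plus strand: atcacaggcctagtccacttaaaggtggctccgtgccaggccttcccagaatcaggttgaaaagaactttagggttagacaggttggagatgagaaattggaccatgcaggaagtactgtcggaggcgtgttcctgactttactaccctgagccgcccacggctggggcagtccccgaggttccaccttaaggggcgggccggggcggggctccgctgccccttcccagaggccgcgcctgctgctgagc
SLC7A5, chr16:87869508-87869757, minus strand: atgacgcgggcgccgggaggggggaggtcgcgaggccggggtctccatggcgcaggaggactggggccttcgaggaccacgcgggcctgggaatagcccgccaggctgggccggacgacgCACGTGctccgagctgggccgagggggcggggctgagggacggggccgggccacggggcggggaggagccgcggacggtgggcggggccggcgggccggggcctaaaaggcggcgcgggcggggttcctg

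The starts of SLC3A2 lie 24787 bases apart. The window before the internal start is intronic for transcripts from the upstream start, since none of the 11 GENCODE transcripts that run from there past the internal start has an exon in it. G and C made up 61.6% of the upstream window, 60.8% of the internal one and 79.6% of the SLC7A5 window, against a median of 58.0% over 35116 windows of the same length. The letters CG in a row occurred 27 times before the upstream start and 12 times before the internal start, against a median of 11. The motifs searched, on both strands, were AGATAA (the core bound by GATA factors), TGATGNAA (the element bound by CEBP and ATF factors) and CACGTG (the E-box), none of which contains another. Of the 23 members followed below, 18 had a window at the start of their most abundant transcript. SLC6A6, SLC7A11 and SLC43A3 had no window, and SLC38A1 and SLC38A5 had none at that start, so their bases were not searched. AGATAA was in 1 of these 18 (SLC6A19) and in 9.17% of all windows, TGATGNAA in 0 of 18 and in 3.14% of all windows, and CACGTG in 3 of 18 (SLC7A5, SLC36A1 and SLC43A1) and in 6.35% of all windows. A match describes letters only.

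Of the 59 members 31 passed the filter on low counts and were tested. The 23 members with a mean of at least 10 TPM on a day came from all families, 7 of them from SLC38, 5 from SLC7, 4 from SLC6, 3 from SLC43, 2 from SLC1 and 1 each from SLC3 and SLC36. A further 8 were tested at lower levels, of which SLC36A4 reached 5.71 TPM and the other 7 stayed under 1 TPM. Among the 28 members not tested, 16 had 0 counts in all 20 libraries, among them the glutamate carriers SLC1A1, SLC1A2 and SLC1A6, the dopamine carrier SLC6A3, the cationic carrier SLC7A3 and the light chain SLC7A10. At 0 there were also SLC1A7, SLC6A5, SLC6A7, SLC6A14, SLC7A4, SLC7A13, SLC7A14, SLC36A2, SLC36A3 and SLC38A4. SLC6A17 and SLC7A9 were among those with at most 3 counts in any library. The remaining 9 (SLC1A3, SLC6A4, SLC6A15, SLC6A16, SLC6A20, SLC7A7, SLC38A3, SLC38A8 and SLC38A11) reached at most 18 counts and 0.219 TPM.

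**Figure D1:**
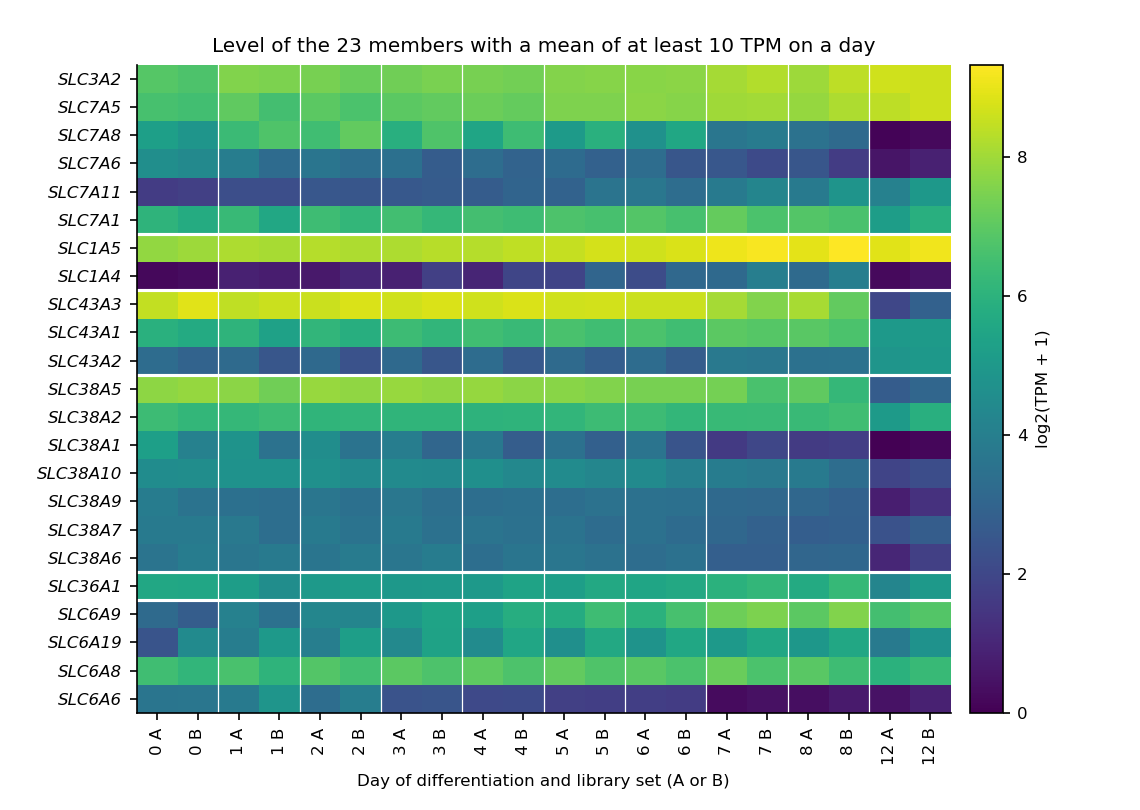
Level of the 23 members with a mean of at least 10 TPM on a day (rows, grouped by role) in each of the 20 libraries (columns, day and set), as log2(TPM + 1) on the colour scale. On day 12 the heavy chain SLC3A2, its light chain SLC7A5 and SLC1A5 have the highest values, while SLC43A3, the highest on day 0, is at 2.93 and 6.40 TPM.

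The summed level of all members began at 1579 ± 55.2 TPM (SD, n = 2), stood highest on day 7 with 2277 ± 50.9 TPM, and ended at 1692 ± 185 TPM on day 12. With TPM rescaled without globin and ribosomal RNA genes the sum was instead highest on day 12 (3168 on day 8 and 4556 on day 12), as it was in CPM with TMM factors (4589 and 9664). The shares of the families within that sum do not depend on how a library is scaled, and they shifted over the course. SLC38 and SLC43 together held 53.0% and 56.7% of the sum on day 0, 31.2% and 19.6% on day 8 and 7.03% and 8.17% on day 12. SLC1, SLC3 and SLC7 together held 36.4% and 33.5% on day 0, 53.1% and 62.8% on day 8 and 81.1% and 78.3% on day 12. The day 0, day 8 and day 12 libraries did not overlap in either share. In the 18 libraries of days 0 to 8 the leading 3 members held 46.7% to 59.2% of the sum, and on day 12 they were SLC1A5, SLC3A2 and SLC7A5 with 77.8% and 73.4%. SLC43A3 was the most abundant member through day 4 in both sets, and SLC1A5 was from day 6 on.

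The 4 comparisons tested were day 1, days 4 to 6 and day 8 against day 0, and day 12 against day 8. Between day 1 and day 0 no member passed edgeR's test (0 of 31, against 0.393% of all genes called, 0.262% higher and 0.131% lower). Its unadjusted p was under 0.05 for 8 of 31 members and for 1538 of all 16784 genes. On that first day DESeq2 called 2 members higher (SLC3A2 and SLC7A8) and limma on TPM called 1 (SLC3A2). Over all 16784 genes the calls numbered 437 with DESeq2, 299 with limma and 442 with the block described next. A block for the table set added to the edgeR fit called 3 (SLC1A4, SLC3A2 and SLC7A8), and leaving out the day 8 library of set A called 1 (SLC3A2). Days 4 to 6 differed from day 0 in 12 of 31 members, against 16.6% of all genes called. Of these 9 rose (7.38% of all genes were called higher) and 3 fell (9.22% were called lower). Between day 8 and day 0 20 of 31 members were called, against 37.1% of all genes, with 13 higher (17.7% of all genes) and 7 lower (19.4% of all genes). Between day 12 and day 8 19 of 31 were called, against 57.2% of all genes, with 10 higher (23.8% of all genes) and 9 lower (33.4% of all genes), so that the members' share was near the background there.

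These counts depended on scale and on libraries. On the TPM scale limma called 9 members higher and 12 lower for day 8 against day 0, and 5 higher and 14 lower for day 12 against day 8. Of all 16784 genes limma called 7883 for day 8, 1223 of them higher, and 10404 for day 12, 1407 of them higher. The median of all genes on that scale lay at -0.34 and -0.68, while on the TMM scale it lay at 0 and -0.20. Without the day 0 library of set A, fewer members were called for day 8 against day 0, and so were fewer of all genes. The same held without both libraries rich in ribosomal RNA. Each of these fits leaves 1 library on a day compared.

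**Figure D2:**
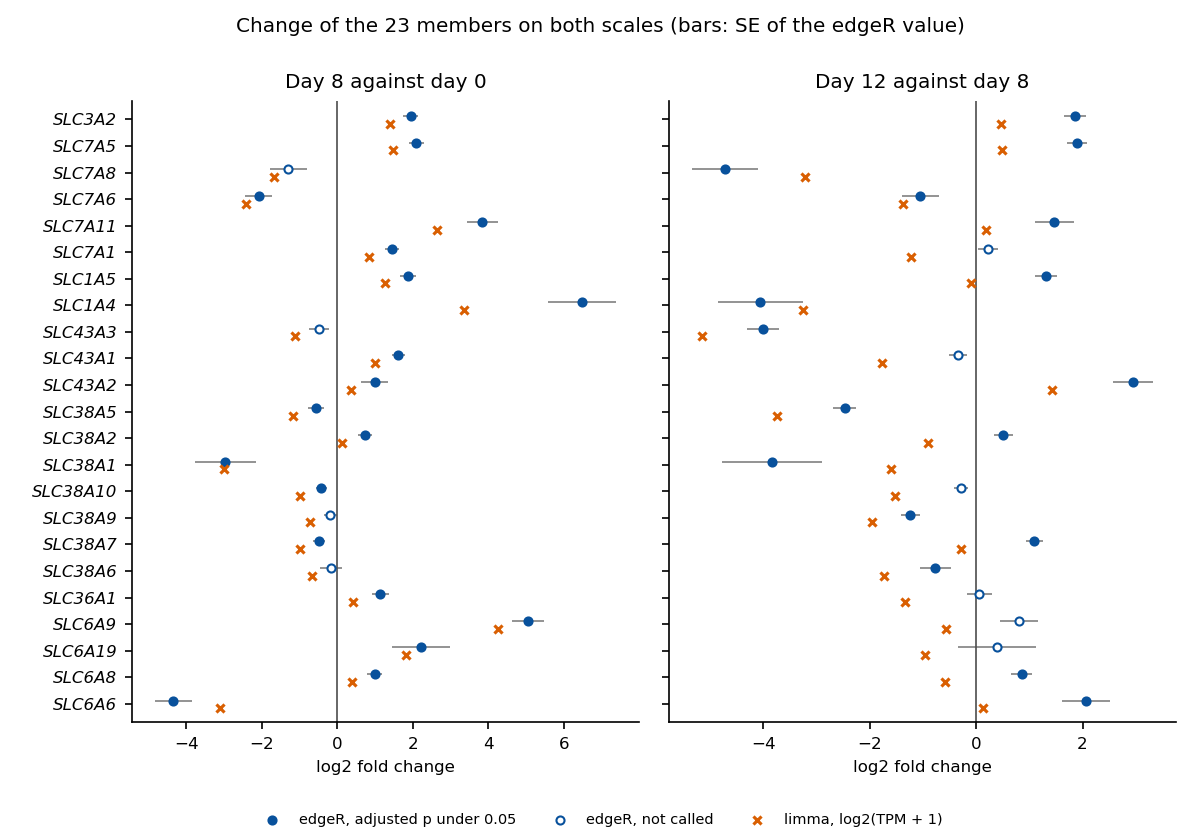
Log2 fold change of the 23 members for day 8 against day 0 (left) and day 12 against day 8 (right). Circles are edgeR values on TMM-scaled counts with their SE as bars, filled where the adjusted p was under 0.05, and crosses are limma values on log2(TPM + 1), which for day 12 against day 8 lie on the other side of 0 for SLC1A5, SLC38A2, SLC38A7 and SLC6A8 among the called members and for SLC6A9, SLC6A19, SLC7A1 and SLC36A1 among the others.

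The exchangers made of SLC3A2 and an SLC7 light chain were reordered over the course. SLC3A2, the heavy chain, stood at 114 and 105 TPM on day 0, at a lowest, median and highest level of 159, 194 and 204 TPM over the 6 libraries of days 4 to 6, at 248 and 332 TPM on day 8 and at 399 and 392 TPM on day 12. All later libraries lay above both day 0 libraries. It rose by 0.88 ± 0.17 on days 4 to 6 (edgeR adjusted p = 0.00358), by 1.94 ± 0.21 on day 8 against day 0 (1.76e-05) and by a further 1.86 ± 0.21 on day 12 (4.14e-06). The last step was 0.46 on the TPM scale (limma adjusted p = 0.00773). Without the day 0 library of set B the rise on days 4 to 6 missed the threshold (adjusted p = 0.0596).

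SLC7A5, the light chain that exchanges leucine and other large neutral amino acids against glutamine, stood at 95.5 and 89.3 TPM on day 0, 229 and 287 TPM on day 8, then 333 and 387 TPM on day 12. The libraries of these 3 days did not overlap. SLC7A5 rose by 1.06 ± 0.16 on days 4 to 6 (edgeR adjusted p = 0.000669), by 2.098 ± 0.19 on day 8 (5.3e-06) and by 1.90 ± 0.19 from day 8 to day 12 (1.55e-06, 0.48 on the TPM scale with limma adjusted p = 0.0185). Its near-identical copies SLC7A5P2 and SLC7A5P1 reached 13.2 and 6.34 TPM, and reads shared with them may have been split between the genes.

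SLC7A8, a light chain for neutral amino acids of all sizes, had a transient course. It began at 37.8 and 27.7 TPM, stood on day 1 to 79.98 and 108 TPM and on day 2 to 86.5 and 133 TPM, and later held 10.5 and 8.32 TPM on day 8, then 0.0695 and 0.166 TPM on day 12. The day 1 and day 2 libraries all lay above day 0 and the day 8 libraries below it. The day 1 difference of 1.64 ± 0.49 did not pass edgeR's test (adjusted p = 0.232), nor did the day 8 difference of -1.30 ± 0.49 (adjusted p = 0.0507), which passed on the TPM scale at -1.69 (limma adjusted p = 0.00414). From day 8 to day 12 SLC7A8 fell by 4.71 on the log2 scale (SE 0.62, edgeR adjusted p = 2.03e-05).

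SLC7A6, a light chain that exchanges cationic against neutral amino acids, went from 23.4 and 19.7 TPM on day 0 to 4.59 and 2.17 TPM on day 8, then 0.453 and 0.812 TPM on day 12. It fell by 1.40 on days 4 to 6 (SE 0.26, edgeR adjusted p = 0.00267) and by 2.08 on day 8 against day 0 (SE 0.36, 0.000601). The further step to day 12 was -1.05 ± 0.35 (0.0217) and was not called without the day 8 or the day 12 library of set A (0.145 to 0.229). The overlapping gene SLC7A6OS reached 10.6 TPM, and the counting of reads by strand is not given in the sources used here. SLC7A11, which takes up cystine against glutamate, went from 2.12 and 2.37 TPM on day 0 to 13.4 and 27.6 TPM on day 8, then 16.0 and 30.3 TPM on day 12. SLC7A11 rose by 2.05 ± 0.34 on days 4 to 6 (0.00128) and by 3.84 ± 0.41 on day 8 (1.7e-05). The day 8 and day 12 libraries overlapped in TPM, and the change between these days was 1.47 ± 0.37 on the TMM scale (0.00376) and 0.18 on the TPM scale (limma adjusted p = 0.687). Without the day 8 library of set A it was 0.95 and without that of set B 2.26.

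Within the 6 light chains that pair with SLC3A2, the share of SLC7A5 in their summed TPM was 60.1% and 64.2% on day 0, 54.7% and 40.7% on day 2, 88.9% and 88.3% on day 8 and 95.3% and 92.5% on day 12. SLC7A8 held 23.8% and 19.9% on day 0, 38.3% and 53.7% on day 2, 4.08% and 2.56% on day 8 and at most 0.0397% on day 12. In the set B libraries of days 1 and 2 SLC7A8 was thus the leading light chain, whereas in set A SLC7A5 led on every day. The share of SLC7A6 went from 14.8% and 14.2% on day 0 to 1.78% and 0.669% on day 8, and that of SLC7A11 from 1.33% and 1.70% to 5.21% and 8.49%. The level of SLC3A2 over the summed light chains was 0.736 ± 0.0243 (SD, n = 2) on day 0, 0.991 ± 0.0438 on day 8 and 1.04 ± 0.144 on day 12. The other heavy chain, SLC3A1, did not pass 0.0841 TPM, and its partner SLC7A9 stayed at or under 3 counts. SLC3A1 overlaps PREPL, which reached 33.2 TPM.

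By transcript, the level from the internal start of SLC3A2 climbed while that from the upstream start sank. NM_001013251, which begins there, began at 58.4 and 51.2 TPM, reached 113 and 102 TPM on day 4, then 204 and 291 TPM on day 8, then 373 and 367 TPM on day 12. The 3 transcripts from the upstream start summed to 51.7 and 51.0 TPM at the start, were at 51.9 and 52.4 TPM on day 4, then 33.4 and 27.6 TPM on day 8, then 2.52 and 1.64 TPM on day 12. Their share of SLC3A2 was 45.3% and 48.7% on day 0, 30.5% and 32.9% on day 4, 13.5% and 8.30% on day 8 and 0.632% and 0.417% on day 12, with no overlap between these days. NR_037193, a non-coding transcript from a start inside the gene, went from 4.08 and 2.54 TPM on day 0 to 23.5 and 23.3 TPM on day 12, when it held 5.88% and 5.95%. Transcript levels are StringTie's division of reads over shared exons, and the shares were not tested.

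**Figure D3:**
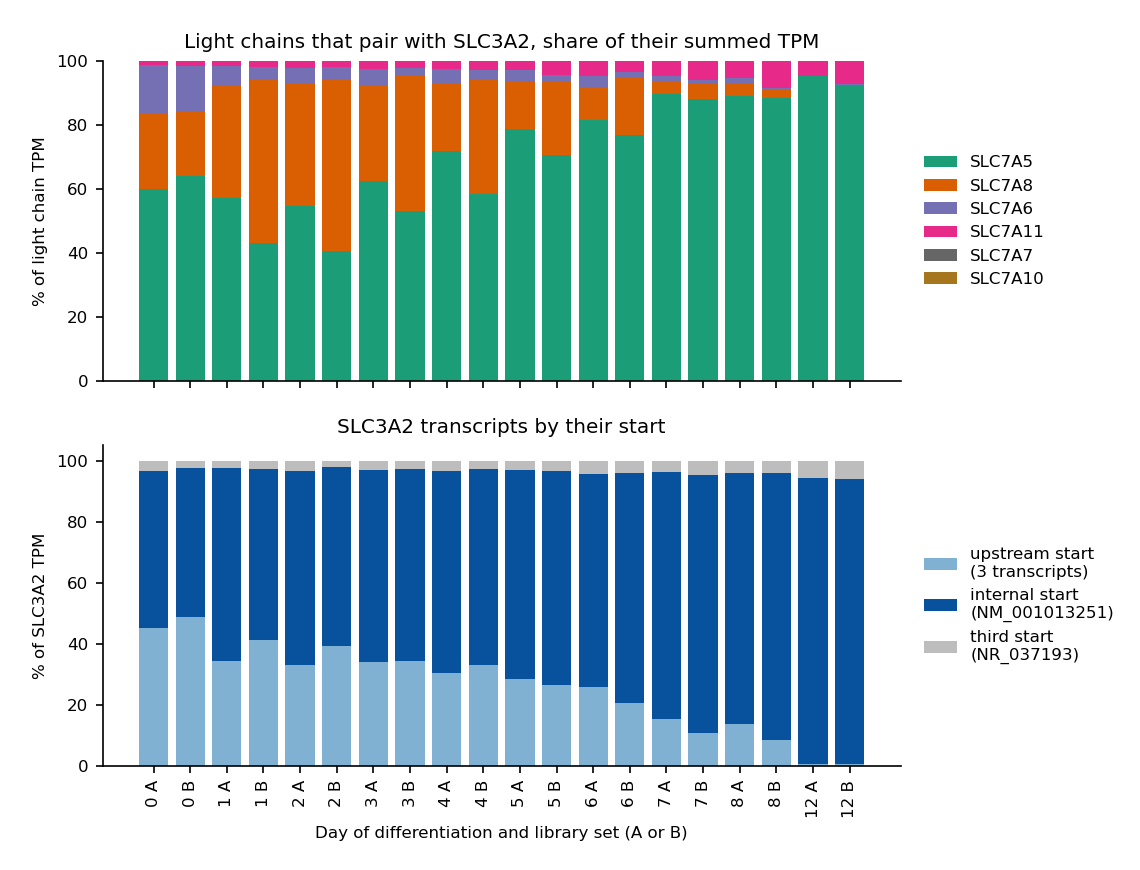
Share of each SLC3A2 light chain in their summed TPM (top) and of SLC3A2 transcripts by start in the SLC3A2 TPM (bottom), in percent, for each library (day and set). SLC7A8 widens to 38.3% and 53.7% on day 2 and is gone by day 12, while the upstream start of SLC3A2 narrows from 45.3% and 48.7% on day 0 to under 1% on day 12.

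Among the cationic amino acid carriers, which bring in arginine and lysine without a heavy chain, SLC7A1 (gene 6541, chr13:29509414-29595688) was the one at an appreciable level. It stood at 65.5 and 52.0 TPM on day 0, 114 and 98.7 TPM on day 8, then 35.2 and 57.3 TPM on day 12, and its highest mean was on day 7. SLC7A1 rose by 0.89 ± 0.16 on days 4 to 6 (edgeR adjusted p = 0.00199, and 0.0558 without the day 0 library of set B) and by 1.45 ± 0.19 on day 8 (7.43e-05). From day 8 to day 12 the scales disagreed, with 0.22 ± 0.18 on TMM-scaled counts (not called, 0.326) and -1.22 on TPM (limma adjusted p = 0.000935), and the day 12 libraries lay below the day 8 libraries in TPM. SLC7A2 had 0.115 and 0.0427 TPM on day 0 and 0 counts in both day 8 libraries, and edgeR did not call it in any of the 4 comparisons, while on TPM its day 8 difference of -0.11 passed (limma adjusted p = 0.0471).

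Both SLC1 carriers that were expressed take up neutral amino acids. SLC1A5 (gene 6510, chr19:46774883-46788594), a carrier of glutamine, alanine, serine and cysteine, stood at 221 and 245 TPM on day 0, at 312, 382 and 448 TPM (lowest, median and highest) on days 4 to 6, at 484 and 638 TPM on day 8 and at 482 and 558 TPM on day 12. The day 8 and day 12 libraries all lay above day 0 and overlapped each other. It rose by 0.85 ± 0.18 on days 4 to 6 (edgeR adjusted p = 0.00482, and 0.0773 without the day 0 library of set A) and by 1.88 ± 0.21 on day 8 (2.64e-05). Day 12 against day 8 gave 1.31 ± 0.21 on TMM-scaled counts (0.000103) and -0.10 on TPM (limma adjusted p = 0.586). SLC1A4 (gene 6509), its relative with a preference for alanine, serine and cysteine, stood at 0.146 and 0.254 TPM on day 0, 8.29 and 14.9 TPM on day 8, then 0.173 and 0.376 TPM on day 12. SLC1A4 rose by 4.39 ± 0.78 on days 4 to 6 (0.00208) and by 6.47 ± 0.90 on day 8 (0.000134), and fell by 4.05 on day 12 against day 8 (SE 0.80, 0.000644). On 9 of the 10 days set B lay above set A, with a median ratio of 2.00.

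The members of SLC43 moved apart. SLC43A3 (gene 29015, chr11:57406954-57427580), described as a carrier of purine nucleobases rather than of amino acids, was the leading member on day 0 with 356 and 483 TPM. It held 376 to 443 TPM on days 4 to 6, 273 and 134 TPM on day 8, then 2.93 and 6.40 TPM on day 12. The day 8 difference from day 0 was -0.48 ± 0.27 and did not pass edgeR's test (adjusted p = 0.172), while on TPM it was -1.11 (limma adjusted p = 0.0123) with no overlap between the days. From day 8 to day 12 SLC43A3 fell by 4.004 on the log2 scale (SE 0.30, 1.07e-07).

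SLC43A2, a carrier of large neutral amino acids, ran the other way. It held 8.90 and 6.83 TPM on day 0, 10.2 and 10.4 TPM on day 8, then 28.2 and 30.7 TPM on day 12. SLC43A2 rose by 2.95 ± 0.38 from day 8 to day 12 (1.59e-05, and 1.43 on TPM with limma adjusted p = 0.00317). Its day 8 difference from day 0, 0.99 ± 0.36 (0.0442), ended when any of 12 of the 20 libraries was left out (0.0502 to 0.215), all day 0 and day 8 libraries among them, and it was 0.36 on TPM (limma adjusted p = 0.43). SLC43A1, with similar substrates, stood at 59.6 and 50.7 TPM on day 0, 122 and 102 TPM on day 8, then 31.6 and 32.5 TPM on day 12. SLC43A1 rose by 0.87 ± 0.14 on days 4 to 6 (0.00115) and by 1.62 ± 0.17 on day 8 (1.56e-05). Day 12 against day 8 gave -0.34 ± 0.17 (not called, 0.0969) and, on TPM, -1.77 (limma adjusted p = 5.94e-06), with the day 12 libraries below all others.

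**Figure D4:**
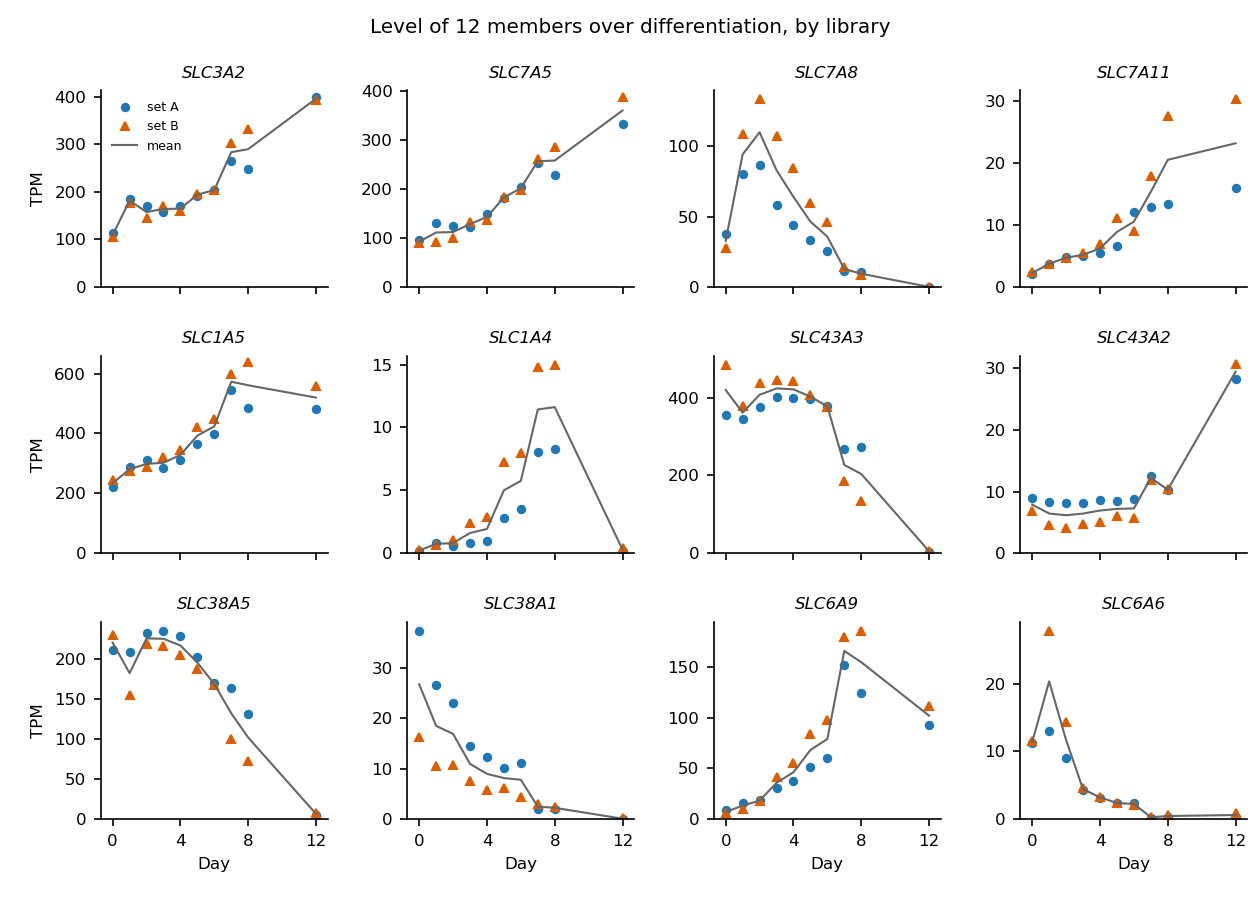
Level in TPM of 12 members against the day of differentiation, with circles for set A, triangles for set B and a line through the mean of both. SLC3A2 and SLC7A5 climb to day 12, SLC1A5 and SLC6A9 are highest on day 7, SLC1A4 on day 8, SLC7A8 on day 2 and SLC6A6 on day 1, and SLC43A3 and SLC38A5 drop to under 8 TPM on day 12.

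The 7 expressed SLC38 members, which carry glutamine and small neutral amino acids, were mostly highest early. SLC38A5 (gene 92745, chrX:48458544-48470260), a carrier of glutamine and histidine, stood at 211 and 229 TPM on day 0, 131 and 72.0 TPM on day 8, then 5.50 and 7.40 TPM on day 12. It fell by 2.47 on day 12 against day 8 (SE 0.21, edgeR adjusted p = 4.19e-07). The day 8 difference from day 0 was -0.56 ± 0.20 (0.0432) and was not called when any of 15 of the 20 libraries was left out (0.0535 to 0.348), both day 0 libraries and the day 8 library of set B among them. Without the day 8 library of set B it was -0.31, and without that of set A -0.85.

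SLC38A1, an importer of glutamine, stood at 37.2 and 16.2 TPM on day 0 and 2.08 and 2.36 TPM on day 8, and on day 12 it had 0 counts in set A and 0.124 TPM in set B. It fell by 2.96 on day 8 against day 0 (SE 0.80, edgeR adjusted p = 0.011) and by 3.83 on day 12 against day 8 (SE 0.94, 0.00313). The size of the latter rests on the day 12 library of set B, without which day 12 holds 0 counts, and it was -2.88 without the day 12 library of set A. The call of SLC38A1 for day 8 ended without the day 0 library of set A or either day 8 library (0.0596 to 0.0726). SLC38A2, an importer of neutral amino acids whose gene responds to amino acid starvation, had 81.9 and 71.5 TPM on day 0, 79.0 and 88.0 TPM on day 8, then 32.8 and 58.6 TPM on day 12. Its day 0 and day 8 libraries overlapped in TPM, and the edgeR value of 0.74 ± 0.18 (0.00574) stood against 0.12 on TPM (limma adjusted p = 0.657). Without the day 0 or the day 8 library of set B the day 8 call ended (0.0525 to 0.0847). For day 12 against day 8 SLC38A2 was called higher on TMM-scaled counts at 0.51 ± 0.18 (0.0243) and lower on TPM at -0.91 (limma adjusted p = 0.00148), and the edgeR call ended without the day 8 library of set A or the day 12 library of set B (0.249 to 0.299).

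The members of SLC38 at the lysosome or of less known place were lower in level. SLC38A9, the lysosomal carrier that senses arginine, had 14.2 and 10.8 TPM on day 0, 7.65 and 6.46 TPM on day 8, then 0.732 and 1.51 TPM on day 12, and fell by 1.24 between day 8 and day 12 (SE 0.18, edgeR adjusted p = 4.3e-05). Its day 8 difference from day 0 was -0.18 ± 0.17 (not called, 0.425) and, on TPM, -0.73 (limma adjusted p = 0.00852). SLC38A7, a lysosomal exporter of glutamine and asparagine, had 13.1 and 12.9 TPM on day 0, 5.97 and 6.21 TPM on day 8, then 4.08 and 5.65 TPM on day 12. Its day 8 difference was -0.50 ± 0.16 (0.0268), which ended without either day 0 library or the day 8 library of set A (0.0763 to 0.21). For SLC38A7 day 12 against day 8 gave 1.09 ± 0.16 on TMM-scaled counts (5.52e-05) and -0.29 on TPM (limma adjusted p = 0.228).

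SLC38A10 had 22.4 and 22.9 TPM on day 0, 13.1 and 9.18 TPM on day 8, then 2.80 and 3.59 TPM on day 12. Its day 8 difference of -0.42 ± 0.14 (edgeR adjusted p = 0.0283) ended when any of the day 0 and day 8 libraries was left out (0.0548 to 0.173). Day 12 against day 8 gave -0.29 ± 0.14 for SLC38A10 (not called, 0.0938) and, on TPM, -1.52 (limma adjusted p = 1.22e-05). SLC38A6 had 11.1 and 14.1 TPM on day 0, 7.42 and 7.65 TPM on day 8, then 0.977 and 2.37 TPM on day 12. SLC38A6 differed by -0.77 ± 0.29 between day 12 and day 8 (0.0356), a call that ended without the day 8 library of set B or the day 12 library of set A (0.163 to 0.265), and without the day 12 libraries of set A and set B in turn it was -0.43 and -1.25. The overlapping gene TRMT5 reached 21.7 TPM. For all 7 expressed SLC38 members both day 12 libraries lay below both day 8 libraries in TPM. On that scale the median limma value of all genes was -0.68, and the share of all genes without overlap was not counted. On TMM-scaled counts SLC38A2 and SLC38A7 were called higher on day 12. The SLC38 sum in CPM with TMM factors was 432 on day 8 and 436 on day 12.

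SLC36A1, a proton-coupled exporter of small amino acids at the lysosome, stood at 47.7 and 45.3 TPM on day 0, 50.5 and 75.7 TPM on day 8, then 18.1 and 31.2 TPM on day 12. The day 8 difference was 1.14 ± 0.23 (edgeR adjusted p = 0.0019) on TMM-scaled counts and 0.41 on TPM (limma adjusted p = 0.234). From day 8 to day 12 the values were 0.06 ± 0.23 (not called, 0.841) and -1.34 (limma adjusted p = 0.000656). SLC36A4, a relative with high affinity for proline and tryptophan, had 5.71 and 5.35 TPM on day 0, 1.39 and 1.84 TPM on day 8, then 0.0769 and 0.130 TPM on day 12. It fell by 1.37 on days 4 to 6 (SE 0.29, 0.00636) and by 2.62 on day 12 against day 8 (SE 0.43, 0.000141). The day 8 difference from day 0 was -1.19 ± 0.39 (0.0287), and it was -0.74 without the day 8 library of set A and -1.82 without that of set B. The calls of SLC36A4 against day 0 ended without either day 0 library (0.0501 to 0.195), and for day 8 also without the day 8 library of set A.

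SLC6A9 (gene 6536, chr1:43996483-44031462), the glycine carrier of the plasma membrane, had the largest rise among members above 100 TPM. It stood at 8.42 and 5.70 TPM on day 0, at 37.3, 57.8 and 97.7 TPM (lowest, median and highest) on days 4 to 6, at 124 and 186 TPM on day 8 and at 92.9 and 112 TPM on day 12. The days compared with day 0 did not overlap with it. SLC6A9 rose by 3.28 ± 0.36 on days 4 to 6 (edgeR adjusted p = 5.81e-05) and by 5.05 ± 0.42 on day 8 (2.37e-06). Day 12 against day 8 gave 0.81 ± 0.35 (not called, 0.066) and, on TPM, -0.57 (limma adjusted p = 0.148). The overlapping transcript LOC107984948 reached 19.5 TPM.

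SLC6A19 (gene 340024, chr5:1201595-1225111), a neutral amino acid carrier known from kidney and intestine, was detected in every library. Its levels were 4.34 and 20.8 TPM on day 0, 29.2 and 47.4 TPM on day 8, then 13.5 and 25.7 TPM on day 12. Set B lay above set A on 10 of 10 days, with ratios of 1.49 to 4.80. The day 8 difference was 2.22 ± 0.77 (edgeR adjusted p = 0.0372) and ended without the day 0 library of set A or the day 8 library of set B (0.207), while within the sets it was 3.24 in A and 1.88 in B. It was 1.48 without the day 0 library of set A and 3.81 without that of set B. Day 12 against day 8 gave 0.39 ± 0.74 for SLC6A19 (not called, 0.682) and, on TPM, -0.96 (limma adjusted p = 0.254). Its neighbour SLC6A18, whose locus begins directly after that of SLC6A19 and on the same chromosome, had 0 counts on day 8 and 0.240 and 0.581 TPM on day 12, at least 14.1-fold higher in CPM than a floor of 3 counts per library, or 9.13-fold from the lower day 12 library. The edgeR call of SLC6A18 (0.014) was lost with DESeq2 (adjusted p = 0.245) and without either day 8 library or the day 12 library of set B (0.0509 to 0.0656).

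Other substrates are carried by SLC6A8 and SLC6A6. SLC6A8, the creatine carrier, stood at 86.5 and 69.5 TPM on day 0, 122 and 85.0 TPM on day 8, then 60.2 and 76.6 TPM on day 12. It rose by 0.74 ± 0.17 on days 4 to 6 (edgeR adjusted p = 0.00892, and 0.145 without the day 0 library of set B), against 0.57 on TPM (limma adjusted p = 0.0809). Its day 8 difference of 0.99 ± 0.20 (0.00187) was 0.39 on TPM (limma adjusted p = 0.238), where the days overlapped. SLC6A8 then gave 0.86 ± 0.20 for day 12 against day 8 on TMM-scaled counts (0.00207) and -0.58 on TPM (limma adjusted p = 0.0695).

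SLC6A6, the taurine carrier, began at 11.2 and 11.6 TPM, held 12.9 and 27.7 TPM on day 1, then 0.267 and 0.610 TPM on day 8, then 0.354 and 0.826 TPM on day 12. It fell by 2.05 on days 4 to 6 (SE 0.31, edgeR adjusted p = 0.000725) and by 4.34 on day 8 against day 0 (SE 0.49, 2.65e-05). The day 8 and day 12 libraries of SLC6A6 overlapped in TPM, with a change of 2.07 ± 0.46 on TMM-scaled counts (0.00154) and 0.14 on TPM (limma adjusted p = 0.728). The 5 remaining tested members of low level (SLC3A1, the noradrenaline carrier SLC6A2, the GABA carriers SLC6A11 and SLC6A13 and the betaine carrier SLC6A12) did not pass edgeR's test in any comparison, and none was above 0.188 TPM. On TPM, SLC6A2 was called for day 12 against day 8 at 0.09 (limma adjusted p = 0.0489).

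By day of the highest mean TPM, the 23 members fell into 3 groups, which depend on the scale. On days 0 to 3 there were 10 (SLC7A6, SLC38A1, SLC38A7 and SLC38A9 on day 0, SLC6A6 and SLC38A10 on day 1, SLC7A8 and SLC38A5 on day 2, and SLC38A6 and SLC43A3 on day 3). On days 7 and 8 there were 9, of which SLC1A5, SLC6A8, SLC6A9, SLC6A19, SLC7A1, SLC36A1 and SLC43A1 on day 7 and SLC1A4 and SLC38A2 on day 8. On day 12 there were 4 (SLC3A2, SLC7A5, SLC7A11 and SLC43A2). No member had its highest mean TPM on days 4 to 6. Both sets gave the same day for 14 of the 23. On TMM-scaled counts SLC1A5, SLC6A8, SLC38A2 and SLC38A7 were instead called higher on day 12 than on day 8. SLC38A7 had a mean of 32.2 CPM on day 12 on that scale, against 21.3 CPM on day 0. SLC6A9, SLC6A19, SLC7A1 and SLC36A1 also had a higher mean CPM on day 12 than on day 8, without a call.

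Other genes that handle amino acids were taken as lists. Of 12 amino acid and peptide carriers outside these families 7 were tested. For day 8 against day 0 SLC66A1, a lysosomal exporter of cationic amino acids, was called higher and SLC15A4, a lysosomal carrier of histidine and peptides, lower. In TPM both day 0 libraries of SLC66A1 lay between its day 8 libraries. For day 12 against day 8, 3 were called higher and 2 lower, against 57.2% of all genes called, and of the 3 only CTNS, the lysosomal cystine exporter, also had a higher mean TPM, at 39.8 and 47.6 TPM on day 12 against 12.4 and 18.9 TPM on day 8. The edgeR difference of CTNS was 2.74 ± 0.33 (adjusted p = 9.21e-06).

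All 31 genes of amino acid sensing at the lysosome were tested. Days 4 to 6 had 2 higher and 3 lower than day 0, near the 16.6% of all genes called. Day 8 had 7 higher and 4 lower, near the 37.1% of all genes called, with a median log2 fold change of 0.04 against 0 over all genes. Day 12 had 18 higher and 6 lower than day 8, against 23.8% and 33.4% of all genes, with a median of 0.60 against -0.20, and only 9 of the 18 had a higher mean TPM, while the 6 were lower on both scales. SESN2, a leucine sensor that restrains growth signalling when leucine is short, stood at 3.25 and 2.85 TPM on day 0, 20.6 and 47.6 TPM on day 8, then 96.3 and 113 TPM on day 12. SESN2 rose by 4.14 ± 0.44 on day 8 against day 0 (edgeR adjusted p = 1.59e-05). DEPDC5, a subunit of the complex that holds the Rag GTPases inactive, stood at 8.67 and 9.11 TPM on day 0, 3.60 and 3.30 TPM on day 8, then 0.102 and 0.185 TPM on day 12. DEPDC5 fell by 0.74 on day 8 against day 0 (SE 0.17, 0.00515) and by 2.94 on day 12 against day 8 (SE 0.20, 3.43e-08). On TMM-scaled counts NPRL2, another subunit of that complex, shared the fall from day 8 to day 12, and the subunit NPRL3 did not. NPRL3 was called higher in both comparisons, at 0.90 ± 0.15 (edgeR adjusted p = 0.000562) and 0.53 ± 0.15 (0.00888), although its TPM was lower on day 12 than on day 8. NPRL2 was called only for day 12 against day 8, at -1.89 ± 0.17 (5.22e-07).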

How the data were processed

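RNA of HUDEP-2 cells was sequenced after a stranded mRNA library preparation. Per the submitters' processing notes, the tools were Trimmomatic 0.38, HISAT2 2.1.0 and StringTie 2.1.3b, with hg38. The authors deposited counts per RefSeq transcript, with TPM beside them, in 4 tables of 170322 transcripts, and the deposited TPM sum to 1000000 per library. Columns were mapped to days by name, 40 were used, and 23 other per-library columns were not used. Over the 4 tables some days had more columns than the 2 samples that the labels give, and the surplus is among those not used. The column names carry no replicate number, so the labels do not settle which columns belong to the labelled samples. Transcripts were summed by gene symbol. Counts of all 20 libraries were tested with edgeR 4.0.16 (quasi-likelihood, filterByExpr, TMM, 1 coefficient per day, Benjamini-Hochberg 0.05) in R 4.3.3. Alternatives were DESeq2 1.42.0, limma 3.58.1 on log2(TPM + 1) or log2(TPM + 0.1), other scalings and filters, only the days compared, a block for the table set and leaving out each library. A fit without both libraries rich in ribosomal RNA was chosen after seeing the data. On simulated data for day 8 against day 0, with 200 of 15660 genes changed 4-fold, edgeR recovered 100% and 6.54% of its calls were false. DESeq2 recovered 100% and limma 99%, with 11.1% and 7.04% of calls false. Only changes of 4-fold were simulated, so these values do not speak to smaller changes. Values per library are given for members with a mean of at least 10 TPM on a day, and other tested members are named where called. SLC36A4, SLC6A18, SLC7A2 and 3 list genes (CTNS, SESN2 and DEPDC5), chosen after their values were seen, are also given per library. Levels of 0 were bounded at 3 counts, for counting error only. The FPKM columns were not used. The members and lists were chosen with earlier results of these data known. Single low genes of these lists are not reported here by name.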

Additional observations from a re-analysis of the deposited data

How the results depend on the processing

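Of 51 calls of members over the 4 comparisons, 27 kept direction and threshold under every alternative in which the gene was tested. Among these was SLC38A1 for day 12 against day 8, which was not tested with the filter of at least 10 counts in every library. A further 20 lost the threshold under at least 1 alternative with the direction kept, and 4 reversed. All reversals were in day 12 against day 8 on TPM with limma, where the value with a pseudocount of 1 and of 0.1 was -0.10 and -0.10 for SLC1A5, -1.34 and -1.38 for SLC36A1, -0.91 and -0.93 for SLC38A2, -0.29 and -0.34 for SLC38A7, -0.58 and -0.58 for SLC6A8, and -1.22 and -1.23 for SLC7A1. SLC36A1 and SLC7A1 were not called by edgeR. The direction of a member that edgeR did not call was compared only where the alternative called it. For day 1 against day 0, against 0 members with edgeR, DESeq2 called 2, limma on TPM 1 with either pseudocount, the block for the table set 3, and the fit without both libraries rich in ribosomal RNA 1. Leaving out 1 library gave 0 to 1 members for day 1, 8 to 14 for days 4 to 6, 13 to 20 for day 8 and 16 to 20 for day 12 against day 8, and the 13 came without the day 0 library of set A. These fits tested 32 or 33 members rather than 31. The number of all genes called changed over these fits as well. It was lower for day 8 without the day 0 library of set A. For days 4 to 6 it was higher without either day 12 library, the fits that gave 14 members. A day left with 1 library is assumed to vary like the other days. The causes were not tested. No paired analysis was possible because, for a pairing by replicate, the columns carry a day but no replicate number. The block for the table set ties libraries by set A or B and not by replicate, and it takes the 3 tables of set B as 1. It called 15 members for days 4 to 6, 21 for day 8 and 22 for day 12 against day 8. Of all 16784 genes the block called 4809, 8106 and 10775 in these comparisons. With 2 libraries a day, members under 1 TPM are limited by depth.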
